A study of Mus musculus with 4 samples.

Results

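A set of 7 genes that mark mouse embryonic stem (ES) cells was followed cell by cell: *Dppa2*, *Dppa3*, *Dppa4*, *Dppa5a*, *Tcl1*, *Tdh* and *L1td1*. They were given by symbol and matched to Ensembl gene identifiers, and all 7 of 7 were found among the 46078 genes of the count tables. Wild-type ES cells, in the study's methods of the E14 line, had been grown in 2i, where blocking MEK and GSK3 keeps them in the naive state. Per the study this medium also held leukemia inhibitory factor (LIF), and the differentiation medium held neither LIF nor the inhibitors. The cells were sorted on scatter (forward and side) with a gate for small cells or with none. They then spent 6 h in 2i or in the differentiation medium N2B27 and were sorted as single cells for Smart-seq2, which reads whole transcripts and adds no molecular identifiers. The 4 groups, small or ungated in 2i and small or ungated in N2B27, held 24 cells each. The small gate was set to hold cells leaving mitosis or in G1, whereas the ungated cells were of all sizes. All 4 groups share the start in 2i, and none carries an added allele.

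Each group is 1 sample, so no test between groups is possible and every difference below is between these samples of cells. The counts of each medium were deposited as a set of their own, so that the effects of medium and of any batch between the sets cannot be told apart. After a filter on depth, genes detected and mitochondrial share, 12 cells of 2i small, 22 of 2i ungated, 20 of N2B27 small and 21 of N2B27 ungated remained, or 75 of 96. Counts on genes ranged from 1364155 to 4844170 per kept cell. Values are counts divided by size factors ("normalized counts"), and intervals of counts and shares are exact 95% intervals that cover counting error only. Of the kept cells, 6 of the 12 in 2i small, 0 of 22 in 2i ungated, 6 of 20 in N2B27 small and 2 of 21 in N2B27 ungated were called G1 from their expression. A 2i small cell stood apart, with 40.9% of its counts on spike-in RNA and a size factor of 0.133, and results that rest on it are given with and without it.

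DPPA2 and DPPA4 are partner chromatin proteins with a SAP domain that bind promoters of developmental genes, and they act upstream of the genes of the 2-cell embryo. DPPA3, also called Stella, is a maternal and germline protein that holds the methylation factor UHRF1 away from chromatin, whereas DPPA5A is an RNA-binding protein with a KH domain. TCL1 is a co-activator of the kinase AKT, TDH is the mitochondrial enzyme that breaks down threonine to feed glycine and acetyl-CoA, on which mouse ES cells depend, and L1TD1 is an RNA-binding protein derived from a LINE-1 element that associates with LIN28. *Dppa3* is known for a patchy pattern in ES cell cultures, where it marks a subset of cells.

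The cells had the markers of their label. The summed level of 7 ES cell markers (*Pou5f1*, *Sox2*, *Nanog*, *Zfp42*, *Esrrb*, *Sall4* and *Utf1*) lay between 331 and 19837 normalized counts per cell, and each of the 75 cells had at least 10 counts of one or more of them. No cell had 10 counts of a fibroblast marker. Of 5 primitive endoderm markers, at least 1 reached 10 counts in 0, 4, 3 and 2 small and ungated cells in 2i and small and ungated cells in N2B27, in that order.

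*Dppa2* and *Dppa4* lie next to each other on chromosome 16 of GRCm38 (mm10), *Dppa4* (ENSMUSG00000058550) at chr16:48283733-48294237 and *Dppa2* (ENSMUSG00000072419) at chr16:48303908-48319723. Both have processed pseudogenes elsewhere in the genome that are nearly identical to their coding sequence and that received counts of their own. Gm9788, a single-exon copy at chr19:41459813-41460718, differs from the 906 coding bases of *Dppa2* at 6 positions, with a run of 381 bases without a difference. Gm14058, at chr2:122214620-122215354, aligns to 532 coding bases of *Dppa4* with 3 differences and an identical run of 317 bases. The stretches below show how few letters separate a read of either gene from a read of its copy. They are 100 coding bases of the GENCODE M21 transcripts, counted from 1 at the first base of the start codon, and capitals mark the bases that differ. For *Dppa2* the bases 22 to 121 are shown, in exons 1 to 2 (chr16:48310528-48311662, plus strand, intron left out), beside chr19:41459834-41459933 on the plus strand. The 4 differences, the base of the gene first, are A48G, A110T, C111T and G121C.
Dppa2: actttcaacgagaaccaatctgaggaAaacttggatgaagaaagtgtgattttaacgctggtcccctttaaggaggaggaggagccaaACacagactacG
Gm9788: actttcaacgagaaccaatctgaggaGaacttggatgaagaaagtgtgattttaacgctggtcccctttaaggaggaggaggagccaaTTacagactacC
For *Dppa4* the bases 378 to 477 are shown, in exon 5 (chr16:48291031-48291130, plus strand), beside chr2:122215034-122215133 on the minus strand, and the 2 differences are A387G and C477T.
Dppa4: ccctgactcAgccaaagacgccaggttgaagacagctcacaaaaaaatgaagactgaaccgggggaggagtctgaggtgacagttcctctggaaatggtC
Gm14058: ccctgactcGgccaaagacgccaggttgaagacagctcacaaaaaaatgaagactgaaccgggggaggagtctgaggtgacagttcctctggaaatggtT

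Over all kept cells Gm9788 held 24298 counts against 14607 of *Dppa2*, or 166% of them, and it exceeded *Dppa2* in 66 of 75 cells. Gm14058 held 21.8% of the counts of *Dppa4*. Copies of the other genes held less: Gm13929 held 6.66% of the counts of *Tdh*, Gm6083 1.10% of those of *Dppa5a* and Gm6798 0.492% of those of *Dppa5a*. A read from any of these genes could have been placed on its copy, so the levels of *Dppa2* and, to a lesser degree, *Dppa4* are uncertain. The share held by the copy was similar across groups, at 147 to 194% for *Dppa2* and 20.7 to 22.7% for *Dppa4*, and with the counts of all close pseudogenes added to each gene no ratio past 2-fold reversed. One crossed the 2-fold line, that of *Dppa2* between ungated media, which was 1.03 on the log2 scale and 0.95 with the copies added.

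**Figure D1:**
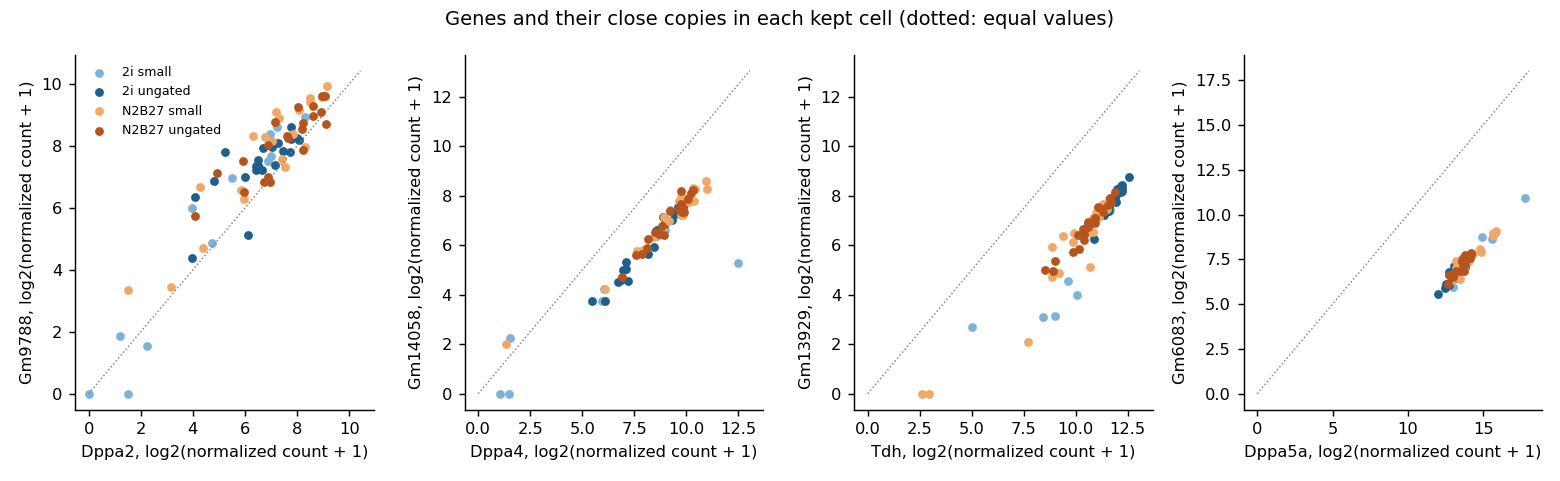
Each point is 1 kept cell, with the normalized count + 1 of a gene (x axis, log2 scale) against that of its close copy (y axis, log2 scale), coloured by group. Gm9788 lies mostly above the dotted line of equal values with *Dppa2* (66 of 75 cells), the other copies lie mostly below it, and a single 2i small cell at 5726 normalized counts of *Dppa4* has 37.67 of Gm14058.

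Detection sorted the genes into a uniform and a mosaic set. A single count is weak evidence of expression here: among the 12 cells of 2i small that the filter left out, 9 of them with more counts on spike-ins than on genes, *Dppa4* had a count in 10 cells but 10 counts in 0, and *Dppa3* had a count in 7 cells but 10 counts in 0. *Dppa5a* alone had at least 10 counts in every kept cell of all 4 groups. In both ungated groups *Dppa2*, *Dppa4*, *Tdh* and *L1td1* did so too, which makes 5 of 7 genes, against 26.4% of the 8757 genes that averaged at least 20 normalized counts over all kept cells in 2i ungated, and 16.0% of them in N2B27 ungated. This background is not matched for level. The median gene with a mean within 2-fold of *Dppa4*, *Dppa5a*, *Tdh* or *L1td1* had 10 counts in 100% of 2i ungated cells. In N2B27 ungated the medians for these 4 genes lay between 90.5 and 100%. Their uniform detection was thus close to that of genes of their level. For *Dppa2* the median of such genes was below 100% in both groups. In small cells the set was smaller, with *Dppa5a* and *Tdh* in 2i, or 2 of 7 against a background of 5.50%, and *Dppa5a* in N2B27, or 1 of 7 against 7.67%. Here too genes of their level came close. The median gene within 2-fold had 10 counts in 100% of 2i small cells for *Dppa5a* and 91.7% for *Tdh*. In N2B27 small it was 100% for *Dppa5a*.

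At the looser level of 1 count, 4 of 7 genes were present in every cell of 2i small, against 19.1% of all genes, 5 of 7 in 2i ungated (39.2%), 5 of 7 in N2B27 small (18.7%) and 5 of 7 in N2B27 ungated (27.1%). These backgrounds are not matched for level either. *Dppa3* and *Tcl1* fell short of a count in every cell in all 4 groups, and *Dppa2* in 2i small, where 1 cell had no count. *Dppa3* and *Tcl1* fell short of this in all 4 groups, and *Dppa2* in 2i small, where 1 cell had no count. That cell was the one with the high spike-in share. All 7 genes reached 10 counts together in 4 of 12, 5 of 22, 2 of 20 and 2 of 21 small and ungated cells in 2i and small and ungated cells in N2B27.

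**Figure D2:**
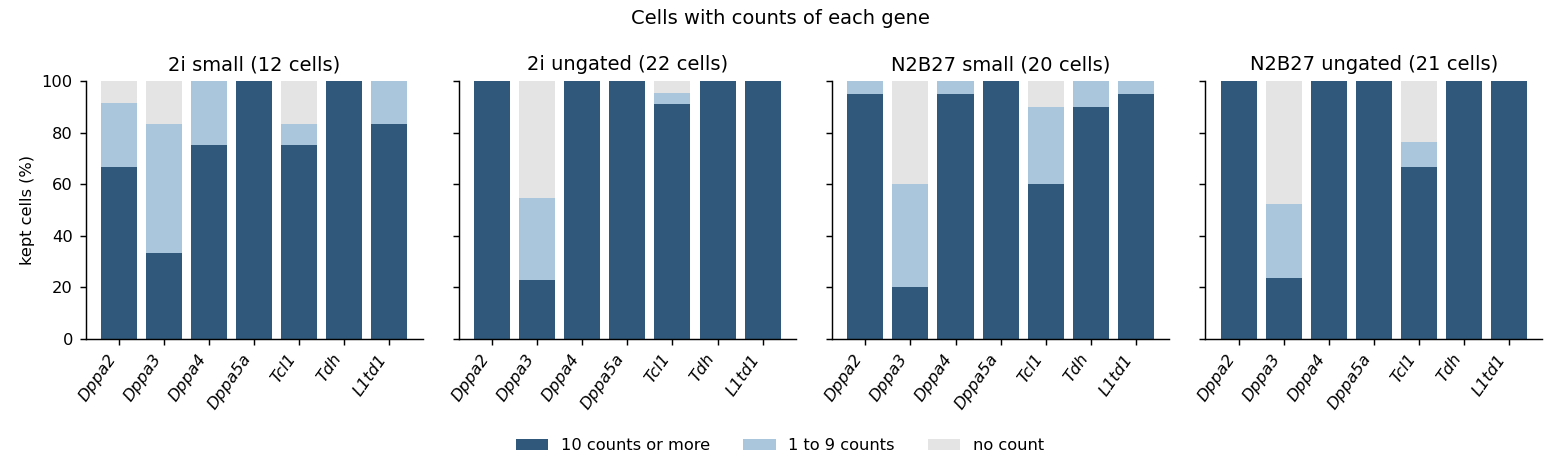
Bars give the percentage of kept cells (y axis) with at least 10 counts, 1 to 9 counts or no count of each gene (x axis), with a panel for each group. *Dppa5a* fills the bar in every group, *Dppa3* has at least 10 counts in at most 33.3% of the cells of a group, and *Tcl1* in at most 90.9%.

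*Dppa3* (ENSMUSG00000046323, chr6:122626410-122630272, plus strand) was the most mosaic. It ran from 0 to 2690 normalized counts in 2i small cells with a median of 6.40, from 0 to 1929 in 2i ungated (median 0.680), from 0 to 9767 in N2B27 small (median 1.54) and from 0 to 291 in N2B27 ungated (median 0.694). A few cells therefore held nearly all of its counts, and the ranges of the 4 groups overlapped. It had at least 10 counts in 4 of 12 cells of 2i small (33.3%, interval 9.92 to 65.1), 5 of 22 of 2i ungated (22.7%, 7.82 to 45.4), 4 of 20 of N2B27 small (5.73 to 43.7%) and 5 of 21 of N2B27 ungated (23.8%, 8.22 to 47.2). These shares lie within each other's intervals, which cover counting error only, and whether the groups differ in the share of *Dppa3*-positive cells was not tested.

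The means of *Dppa3* over all kept cells were 402, 181, 569 and 29.4 normalized counts in small and ungated 2i cells and small and ungated N2B27 cells, and the coefficients of variation 2.02, 2.80, 3.85 and 2.47. The median gene with a mean within 2-fold of it had coefficients of variation of 1.19, 0.787, 0.956 and 2.11, in the same order. In N2B27 ungated *Dppa3* was thus close to genes of its level. It had at least 10 counts in 23.8% of those cells, against a median of 28.6% for such genes. *Dppa3* was 5.99-fold lower in ungated N2B27 than in ungated 2i cells (log2 ratio −2.58), with 3 cells of 2i ungated above every cell of N2B27 ungated. The log2 ratio was −1.70 without the highest 2i cell, and the medians of both groups were near 0, at 0.680 and 0.694 normalized counts. In N2B27 it was 18.7-fold higher in small than in ungated cells (log2 ratio 4.23), but a single cell held 85.9% of the normalized level of the small group, and without that cell the log2 ratio was 1.49. Small N2B27 against small 2i cells gave 0.50, and −2.24 without the same cell.

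The cell with 9767 normalized counts of *Dppa3* took 0.440% of its gene counts for it. It had 16122 normalized counts of *Dppa5a*, 1662 of *Tdh* and 470 of *Dppa4*, within the ranges of the other cells of its group, while *Tcl1* had 2 counts and *L1td1* 1 count. Counts of the 2-cell program, which DPPA2 and DPPA4 act upstream of, were near 0 throughout. The 16 of its genes found among the counts included *Zscan4c*, *Zscan4d* and *Zfp352*. At least 1 reached 10 counts in 1, 1, 0 and 0 cells of small and ungated 2i and small and ungated N2B27. How reads that fit several places were counted was not given in the sources used here. Genes with close copies may thus be undercounted, and *Zscan4d* had 0 counts in every kept cell.

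*Tcl1* (ENSMUSG00000041359, chr12:105216750-105222793, minus strand) was the other mosaic gene. Its normalized counts ran from 0 to 1337 in 2i small (median 230), from 0 to 2581 in 2i ungated (median 356), from 0 to 2329 in N2B27 small (median 227) and from 0 to 559 in N2B27 ungated (median 131). In N2B27 small, 8 of 20 cells had under 10 counts and the other 12 had between 101.4 and 2329 normalized counts, with none in between. It reached 10 counts in 9 of 12, 20 of 22, 12 of 20 and 14 of 21 small and ungated cells in 2i and small and ungated cells in N2B27. The median gene with a mean within 2-fold of *Tcl1* did so in 66.7, 100, 70.0 and 71.4% of these cells. The coefficients of variation of *Tcl1* were 1.13, 1.10, 1.58 and 1.09, against medians of 1.21, 0.514, 1.14 and 1.10 for such genes. In 2i small and N2B27 ungated it was thus close to genes of its level. The share in 2i ungated (90.9%, interval 70.8 to 98.9) and that in N2B27 ungated (66.7%, 43.0 to 85.4) have intervals that overlap, and whether these shares differ was not tested.

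Among ungated cells *Tcl1* was 3.23-fold lower in N2B27 than in 2i (means 164 and 533, log2 ratio −1.69), and 8 of 22 cells of 2i exceeded every cell of N2B27. The log2 ratio kept its sign and stayed past 1 in size under all alternatives run. Within N2B27 it was 2.15-fold higher in small than in ungated cells (log2 ratio 1.10), but 0.60 without the highest small cell. In ungated N2B27 cells it had at least 10 counts in 13 of the 15 cells called G2/M, in 1 of 4 called S and in 0 of 2 called G1. In the other groups it had at least 10 counts in 7 of 7 S and 13 of 15 G2/M cells of 2i ungated, 5 of 5 S cells of 2i small and 8 of 11 S cells of N2B27 small. Of small cells called G1, 3 of 6 in 2i and 2 of 6 in N2B27 had at least 10 counts. Of those called G2/M it was 1 of 1 in 2i and 2 of 3 in N2B27. In 2i every cell with 10 counts of *Dppa3* also had 10 of *Tcl1* (4 of 4 small and 5 of 5 ungated). In N2B27 this held for 2 of 4 small and 2 of 5 ungated cells. Over all kept cells *Tcl1* reached 10 counts in 9 of 12 small and 20 of 22 ungated cells of 2i. In N2B27 it did so in 12 of 20 small and 14 of 21 ungated cells. With 4 or 5 such *Dppa3* cells a group, whether the genes mark the same cells, or differ in this between media, was not tested.

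*Tdh* (ENSMUSG00000021953, chr14:63492347-63509092, minus strand) overlapped least between ungated cells of the media. In 2i ungated cells it ran from 1527 to 6047 normalized counts with a median of 3771, and in N2B27 ungated cells from 369 to 3788 with a median of 1562. Of the 21 cells in N2B27, 20 lay below the median of 2i, 9 lay below every 2i cell, and 11 of 22 cells in 2i lay above every N2B27 cell. The mean was 2.08-fold lower in N2B27 (1787 against 3720, log2 ratio −1.06), and −0.93 among cells called G2/M, of which there were 15 in each group. A transcript antisense to *Tdh*, Gm17232, shares 66 exon bases with it, and the strand setting of the counting was not given in the sources used here.

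In small cells *Tdh* spread downwards. Its values in 2i small ran from 30.9 to 4621 normalized counts (median 2106) and in N2B27 small from 5.19 to 3085 (median 1605), with 5 of 12 and 3 of 20 cells below every ungated cell of their medium. The coefficient of variation was 0.274 in 2i ungated, 0.538 in N2B27 ungated, 0.754 in 2i small and 0.692 in N2B27 small. The log2 ratio of means between small and ungated cells was −0.73 in 2i and −0.32 in N2B27, neither past 2-fold.

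*Dppa5a* (ENSMUSG00000060461, chr9:78367052-78368177, minus strand) was the most abundant and was present in every kept cell. Normalized counts ran from 4100 to 14059 in 2i ungated (median 9692) and from 6537 to 18874 in N2B27 ungated (median 12808), a spread of 3.43-fold and 2.89-fold. Its coefficients of variation, 0.279 and 0.303, were above the medians of genes with a mean within 2-fold of it, which were 0.209 over 28 genes in 2i ungated and 0.246 over 12 genes in N2B27 ungated. A median of 0.409% of the gene counts of a cell in 2i ungated, and 0.533% in N2B27 ungated, came from this gene. The medium made little difference in ungated cells, with a log2 ratio of 0.35.

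Small cells reached higher levels of *Dppa5a*. Values ran from 6703 to 219929 normalized counts in 2i small (median 12848) and from 7987 to 60328 in N2B27 small (median 14892). The group medians were near those of ungated cells, but 5 of 12 and 7 of 20 small cells exceeded every ungated cell of their medium. The log2 ratio of means was 1.95 in 2i, or 1.09 without the cell of high spike-in share, and 0.90 in N2B27. The ratio in 2i ranged from 1.03 to 3.39 over the alternatives run. When cells were scaled by their spike-ins, which keeps differences in total RNA between cells, it was 1.65 in 2i and −0.29 in N2B27. The value of 1.65 weighs heavily on the 2i small cell of lowest spike-in share, 0.0673%. That cell lay within the ungated range of *Dppa5a*, at 12906 normalized counts. The spike-in ratio was not computed without it, so whether it stays past 1, or differs between media, was not tested.

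The cells with high *Dppa5a* had more spike-in and fewer genes. In 2i small the 5 cells above the ungated range had spike-in shares of 4.31 to 40.9% and 4612 to 7283 genes, against 0.0673 to 5.02% and 7395 to 15712 genes in the other 7. In N2B27 small the 7 such cells had 2.33 to 6.03% and 5603 to 7386 genes, against 0.799 to 4.81% and 6344 to 9270 in the other 13. Across the 12 cells of 2i small the rank correlation (Spearman's rho) of *Dppa5a* with *Tdh* was −0.92, and −0.91 without the cell of high spike-in share, against −0.40 over 20 cells of N2B27 small, −0.14 over 22 of 2i ungated and 0.01 over 21 of N2B27 ungated. *Dppa5a* correlated with the spike-in share at 0.73 in 2i small and 0.62 in N2B27 small. These are descriptions over cells of the same sample that differ in depth, and the part of RNA content or cell quality in them was not tested.

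**Figure D3:**
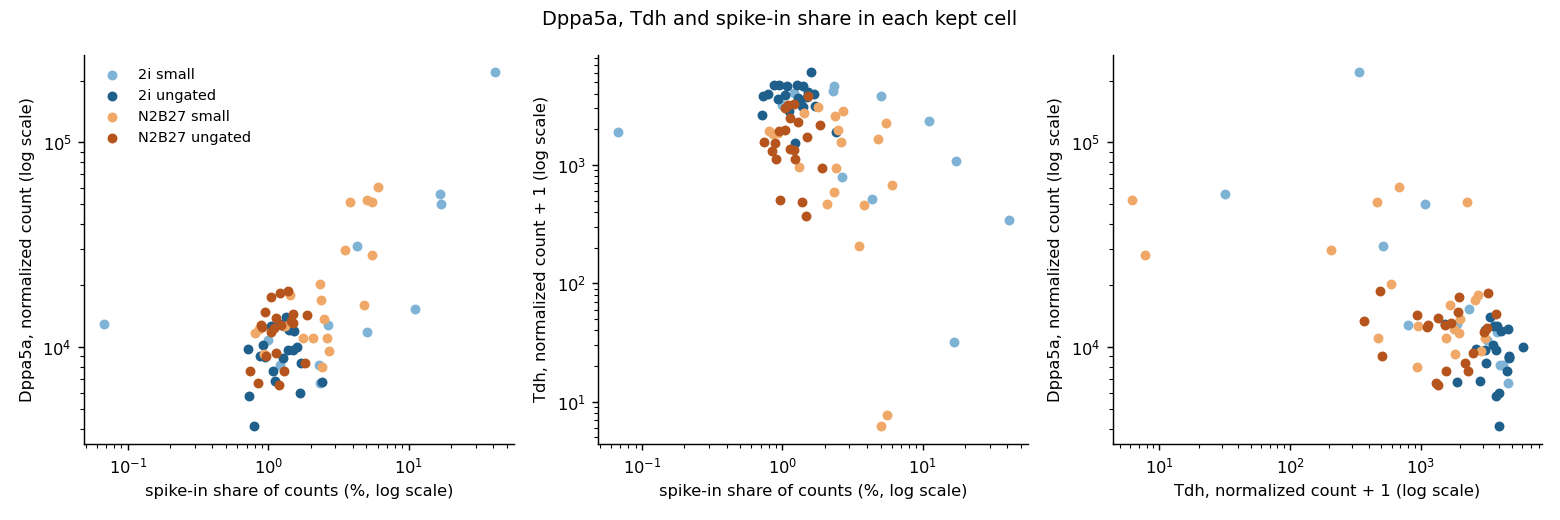
Points are kept cells, coloured by group, with the spike-in share of counts (%) or *Tdh* (normalized count + 1) on the x axis and *Dppa5a* or *Tdh* on the y axis, all on log scales. Ungated cells form a compact cloud that reaches 2.42% spike-in share and 18874 normalized counts of *Dppa5a*, and the small cells above it in *Dppa5a* lie towards the right in spike-in share.

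*Dppa4* and *Dppa2* were both higher in N2B27. *Dppa4* ran from 43.8 to 948 normalized counts in 2i ungated (median 381) and from 119 to 1287 in N2B27 ungated (median 809), and 15 of 21 cells in N2B27 exceeded the median of 2i. *Dppa2* ran from 14.5 to 266 in 2i ungated (median 93.9) and from 16.1 to 551 in N2B27 ungated (median 203), and 17 of 21 cells exceeded the median of 2i. The log2 ratio of means in ungated cells was 0.74 for *Dppa4* and 1.03 for *Dppa2*, or 2.04-fold, and 0.95 for *Dppa2* with its copies added. All ungated cells had at least 10 counts of both genes, yet the levels of the partners did not rise together from cell to cell: rho was 0.21 over 22 cells of 2i ungated and −0.25 over 21 of N2B27 ungated.

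Among small cells the pair was less even. *Dppa4* ran from 1.08 to 5726 normalized counts in 2i small (median 393) and reached 2060 in N2B27 small (median 828), where 1 of 20 cells had under 10 counts, and *Dppa2* from 0 to 319 (median 34.9) and from 1.82 to 570 (median 152). *Dppa2* was 2.41-fold higher in small N2B27 than in small 2i cells (log2 ratio 1.27, and 1.14 without the cell of high spike-in share). With spike-in scaling the ratio was −1.17, where the median of all genes was −1.55. Both values weigh heavily on the 2i small cell with 0.0673% of its counts on spike-ins, and were not computed without it. The ratio of *Dppa4* between these groups turned on the cell of high spike-in share. That cell had 5726 normalized counts from 760 counts, no count of *Dppa2* and 37.67 normalized counts of Gm14058. The ratio was 0.10 with the cell and 1.37 without it. Small against ungated cells in 2i likewise gave 0.95 for *Dppa4* with the cell and −0.31 without.

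*L1td1* (ENSMUSG00000087166, chr4:98726734-98738480, plus strand) had similar means in the 4 groups after the filter on cells. The means were 387, 373, 404 and 351 normalized counts in small and ungated 2i cells and small and ungated N2B27 cells, and none of the 4 log2 ratios exceeded 0.20 in size. With no filter on cells the ratio was −1.01 between small and ungated 2i cells and −0.93 between ungated cells of the media, and with means of log2 values the ratio between ungated media was −0.85. Ungated cells ran from 81.7 to 714 in 2i (median 395) and from 12.1 to 1126 in N2B27 (median 244), with 7 of 21 cells in N2B27 below and 3 above every cell of 2i. The fold between the upper and lower quartile was 1.96 in 2i ungated and 13.9 in N2B27 ungated. Small cells ran from 1.88 to 1229 in 2i (median 339) and from 1.02 to 1529 in N2B27 (median 281).

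**Figure D4:**
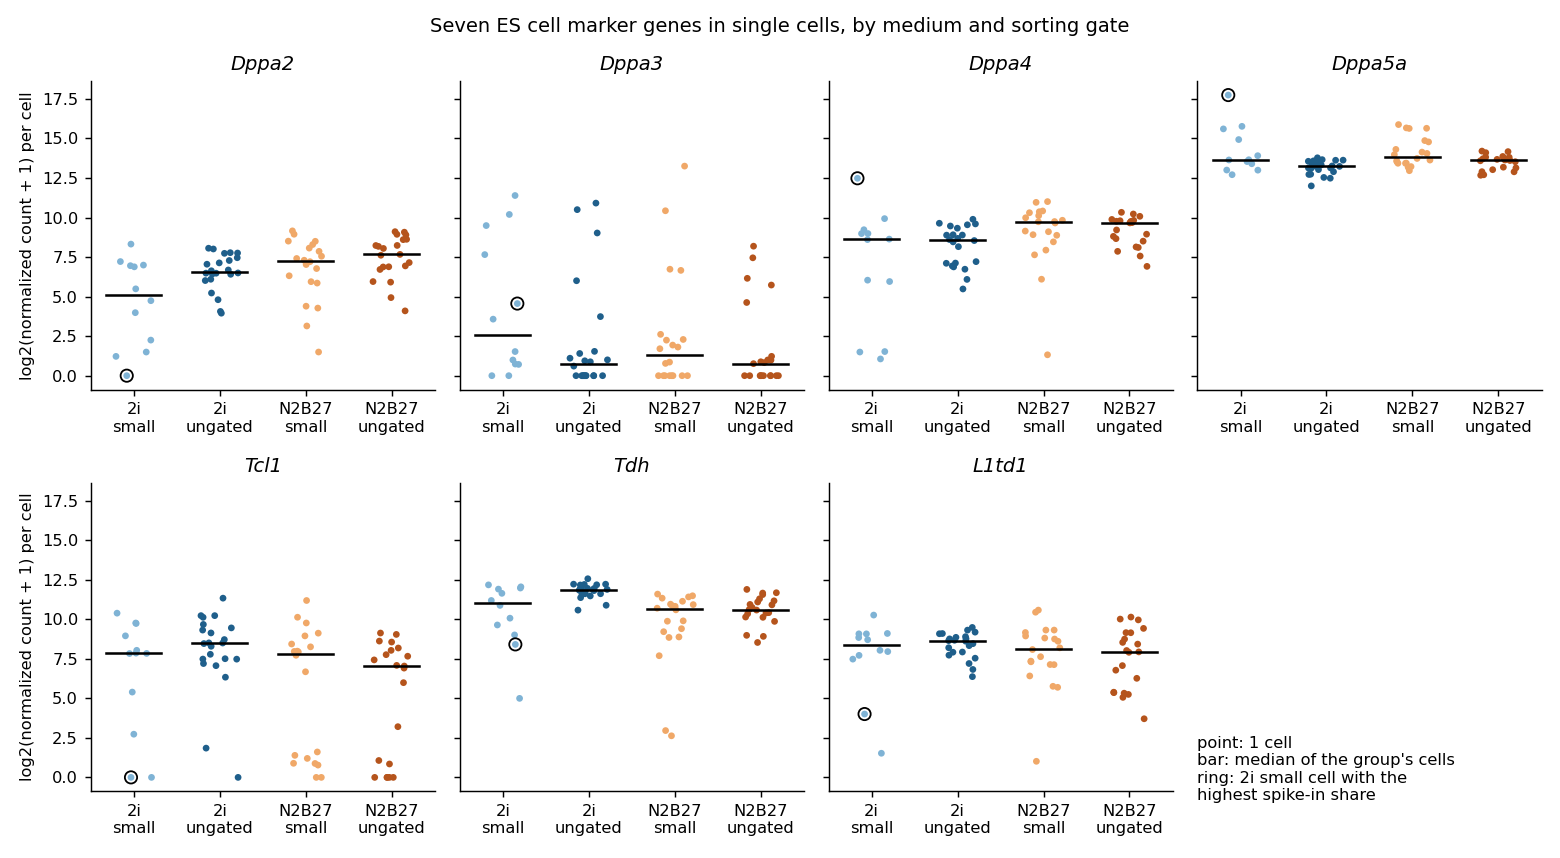
Each point is 1 kept cell, plotted as log2(normalized count + 1) (y axis) by group (x axis), with a panel for each gene, a bar at the median and a ring around the 2i small cell of high spike-in share. *Dppa5a* stays high in every cell (lowest cell 4100 normalized counts), *Dppa3* is near 0 in most cells with single cells up to 9767, and *Tcl1* splits into cells with and without it.

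Set side by side, 4 of 7 genes were past 2-fold between ungated N2B27 and ungated 2i cells, *Dppa2* higher and *Dppa3*, *Tcl1* and *Tdh* lower, against 17.5% of the 8757 genes. With the close copies added it was 3 of 7, without *Dppa2*. In the small cells 1 of 7, *Dppa2*, was past 2-fold between the media, or 2 of 7 without the cell of high spike-in share, against 41.7%. Between small and ungated cells 2 of 7 were past 2-fold in N2B27 (*Dppa3* and *Tcl1*, both higher in small cells), against 29.1%, and 2 of 7 in 2i (*Dppa3* and *Dppa5a*, both higher), against 44.2%. The median log2 ratio of the 7 genes was −0.09, 0.06, 0.32 and 0.05 in these comparisons, in that order, and that of the 8757 genes −0.03, 0.11, −0.12 and −0.40. The comparisons share groups, so their values are not independent of each other.

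**Figure D5:**
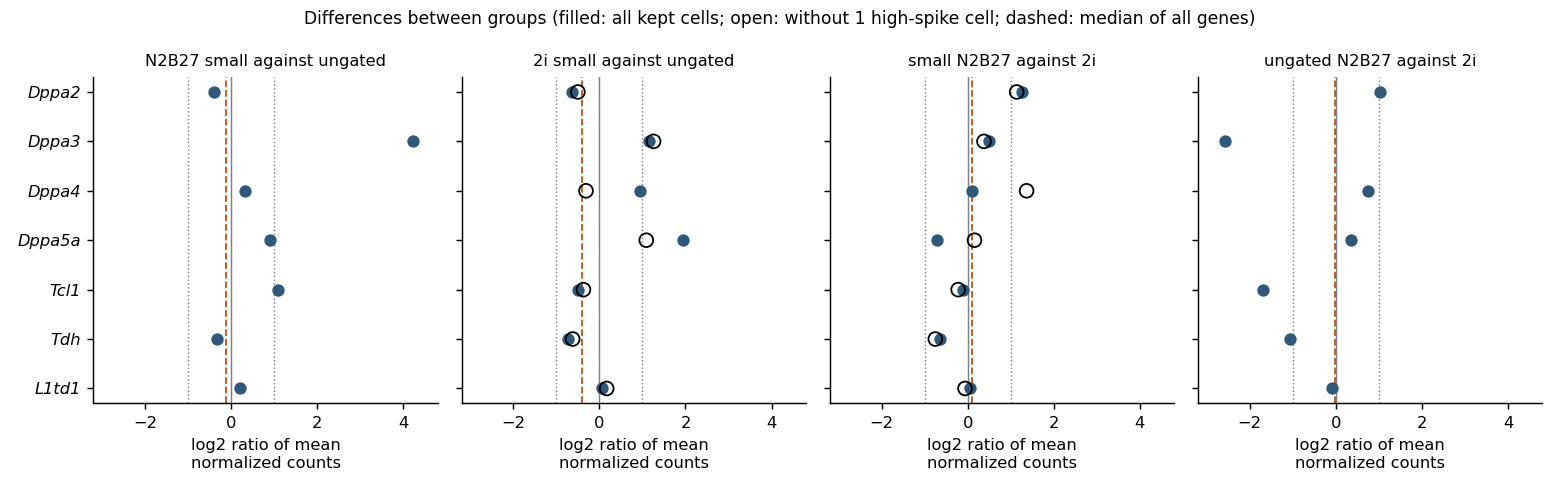
Filled points are log2 ratios of mean normalized counts (x axis) for each gene (y axis) in the 4 comparisons, open circles the ratios without the 2i small cell of high spike-in share, dotted lines 2-fold and dashed lines the median of the 8757 genes. *Dppa3* spans −2.58 to 4.23, *L1td1* stays within 0.20 of 0, and *Dppa4* and *Dppa5a* move most when the single cell is left out.

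Per length the order of mean levels was led by *Dppa5a*, at 15455 normalized counts per kb of exon in 2i ungated and 19744 in N2B27 ungated. *Tdh* was next, with 1423 and 683, and the other 5 genes lay between 48.9 and 289 in 2i ungated and between 32.9 and 398 in N2B27 ungated. The ranges over cells of these 5 overlap within each group, and the order of *Dppa3* depends on a few cells: its median per kb was the lowest of the 7 in every group.

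The pattern of each gene over the 75 cells, after the mean of each group was taken off, was set against 8667 genes by Pearson's r on the log2 scale. For *Dppa2*, *Dppa4*, *Tdh* and *Dppa5a* the gene most alike was its own copy, Gm9788 (0.91), Gm14058 (0.93), Gm13929 (0.93) and Gm6083 (0.95). Next to the copies came *Dkc1* (0.57) and *Tpd52l2* (0.55) for *Dppa2*, *Gnl3* (0.62) and Gm7429 (0.57) for *Dppa4*, *Slc25a39* (0.78) and *Ddx39b* (0.75) for *Tdh*, and Gm6798 (0.95), a further copy, and Gm7204 (0.82) for *Dppa5a*. The closest genes were *Plpp3* (0.50), *Kif13b* (0.47) and *Vps16* (0.44) for *Dppa3*, *Sf3b2* (0.52), *L3mbtl2* (0.51) and *Ppdpf* (0.50) for *Tcl1*, and *Polr1d* (0.62), *Atp6v0c-ps2* (0.59) and *Bex1* (0.54) for *L1td1*. Cells share depth and library quality, which these values contain. Among the 7 genes the largest value in size was −0.50, between *Dppa5a* and *Tdh*, followed by 0.36 between *Tcl1* and *Tdh*.

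Genes that work with the 7 were taken from lists, and their counts stand against a background of 7.61% of the 8757 genes past 2-fold higher and 9.89% lower in ungated N2B27 than in ungated 2i cells. Between small and ungated N2B27 cells the background was 11.9% higher and 17.2% lower. With lists this short, shares near these values say nothing particular about a list. Of 16 measured genes of threonine and glycine metabolism, 0 were past 2-fold higher and 2 lower in ungated N2B27 than in ungated 2i cells, with a median log2 ratio of −0.14. The lower 2 were *Gcat*, which follows TDH in threonine breakdown, at −1.36 (1009 normalized counts in 2i and 392 in N2B27), and *Amt* of the glycine cleavage system at −1.25 (811 and 340). *Phgdh*, at the entry of serine synthesis, and *Mthfd1l*, a mitochondrial folate enzyme, differed most between small and ungated cells in N2B27, at −1.60 and −1.55.

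Of 7 measured genes around TCL1 and AKT, 0 were higher and 2 lower past 2-fold in ungated N2B27, *Akt1* at −1.30 (43.9 normalized counts in 2i and 17.2 in N2B27) and *Pdpk1* at −1.20 (41.5 and 17.5). *Akt1* was also lower in small than in ungated N2B27 cells (−2.01) and *Pik3cb* higher (1.44). These ratios rest on few cells. *Akt1* had at least 10 counts in 7 of 22 ungated 2i cells and *Pdpk1* in 8, and each in 4 of 21 ungated N2B27 cells. In N2B27 small, *Akt1* had them in 1 of 20 cells. *Pik3cb* had them in 4 small and 3 ungated N2B27 cells. The *Tcl1b* genes, the neighbours of *Tcl1*, had no cell with 10 counts. Of the 7 measured genes of DNA methylation, with which DPPA3 is tied, 0 were higher and 3 lower in ungated N2B27, among them *Dnmt1*, the maintenance methyltransferase (−1.44), and *Uhrf1*, its recruiter (−1.15). In N2B27 small against ungated cells *Dnmt1* was higher (2.05) and *Dnmt3l*, a cofactor of the de novo enzymes, lower (−1.98).

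Of 11 measured maternal and germline genes 2 were higher and 3 lower in ungated N2B27, and 4 were higher and 0 lower in small than in ungated N2B27 cells (median log2 ratio 0.78, against −0.12 for all genes). *Dnd1* and *Prdm1*, regulators of germ cells, had log2 ratios of −3.54 and −3.05 between ungated media and of 3.73 and 4.71 between gates in N2B27, with at least 10 counts in 5 and 4 of 20 small and 2 and 1 of 21 ungated N2B27 cells. Between gates in 2i they were 0.77 and −3.48, and between small cells of the media −0.58 and 5.14. Of 9 measured genes around LIN28 and L1TD1, 0 were higher and 1 lower in ungated N2B27, *Igf2bp3* at −1.36. Of 27 measured ES cell markers, 0 were higher and 4 lower, led by *Klf4* (−2.43) and *Tbx3* (−1.38), naive transcription factors. Between gates in N2B27 *Klf4* was higher (3.44) and *Tbx3* lower (−2.72) in small cells. Few cells carry the values of *Klf4*. It had at least 10 counts in 8 of 22 ungated 2i cells, 6 of 20 small N2B27 cells and 2 of 21 ungated N2B27 cells. For *Tbx3* it was 18, 2 and 13 cells, in the same order. Of the markers of early differentiation 2 were measured, *Otx2* at 0.80 and *Dnmt3b* at −0.21 in ungated N2B27 against 2i.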

How the data were processed

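Single-cell Smart-seq2 libraries of 4 samples of mouse ES cells were analysed. Per the labels, the authors trimmed reads with Trim Galore 0.4.4, aligned them to mm10 with GSNAP and counted them on genes with HTSeq, and they deposited raw counts per gene and cell that were not normalized, filtered or pooled. Reads were paired-end, and the methods state that DESeq2 was used for normalization. The sample of each cell was read from the list of sequencing runs. The 46078 gene rows were used, of which 45143 had a symbol, and rows without a gene were left out of all totals.

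Within the set of counts of each medium, cells over 3 median absolute deviations out in counts, genes or mitochondrial share were removed (scater 1.30.1). Size factors came from DESeq2 1.42.0 and phases from the cyclone function of scran 1.30.0, in R 4.3.3. The log2 ratio of group means used a pseudocount of 1, and a gene was past 2-fold when its size was at least 1. Backgrounds covered the 8757 genes that averaged at least 20 normalized counts. Positions and transcripts came from GENCODE M21, of the same build but a later release than the annotation used for counting. Close copies were transcripts with at least 90% identity over at least 200 bases (BLAST 2.17.0), and only pseudogenes were added to their gene. Other steps used Python 3.11.15, numpy 2.4.6, scipy 1.17.1, pandas 2.3.3 and matplotlib 3.10.9. The ratio code was tested on simulated data.

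No p-value was computed, since each group is 1 sample of cells. All 7 genes were named, together with the 2 genes of each list with the largest log2 ratio in size between ungated media and between gates in N2B27, and the 3 genes closest in pattern among those that averaged at least 20 normalized counts and were detected in at least 20% of cells. The genes and lists were chosen with earlier results of these data known. Alternatives covered the filter, the normalization (CPM, scran, spike-ins), the summary over cells, single cells left out, pseudocounts of 0.5 and 5, no minimum mean, and thinning to 1364155 counts per cell. Adding the copies and keeping G2/M cells only were chosen after seeing the data.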

Additional observations from a re-analysis of the deposited data

Results flagged for a closer look

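For 2 genes the difference between groups went opposite ways in the 2 settings where it could be measured, with at least 1 of the ratios past 2-fold. *Dppa3* was higher in N2B27 than in 2i among small cells (log2 ratio 0.50) and lower among ungated cells (−2.58). The value for small cells rests on a single N2B27 cell with 9767 normalized counts and was −2.24 without it, in the same direction as in ungated cells. *Tcl1* was higher in small than in ungated cells in N2B27 (1.10) and lower in 2i (−0.49). Without the highest small cell these were 0.60 and −0.87. Whether either pair differs was not tested, since each group is 1 sample.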

How the results depend on the processing

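No paired analysis was possible because each group is 1 sample. Direction was kept under all alternatives for *Dppa3*, *Tcl1* and *Tdh* between ungated media (−2.83 to −0.36, −2.86 to −1.25 and −1.24 to −0.93). One called ratio reversed, that of *Dppa2* between small cells, at −1.17 with spike-in size factors, which also moved the median of all genes in that comparison from 0.11 to −1.55. Relative to that median *Dppa2* was higher under both scalings. The spike-in values of 2i small weigh heavily on the cell with 0.0673% of its counts on spike-ins. Whether the reversal holds without that cell was not tested. Of the 427 ratios of single genes under alternatives, 45 crossed the 2-fold line without reversal.

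The number of genes past 2-fold changed by more than 1.5 times in these cases. Between N2B27 small and ungated cells it was 2, and 1 with means of log2 values or with the highest cell of each group left out. Between 2i small and ungated cells it was 2, and 4 with spike-in size factors or 6 with means of log2 values. Between small cells of the 2 media it was 1, and 2 with no cell filter, with CPM, without the 2i small cell of high spike-in share or without both 2i small cells that stood apart, 3 without each highest cell, 4 with means of log2 values and 6 with spike-in size factors. Between ungated cells it was 4, and 2 with means of log2 values. The 4 and 6 with spike-in size factors involve 2i small, where the cell with 0.0673% of its counts on spike-ins weighs heavily.

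The number of genes with a count in every cell was 4 in 2i small, and 2 with no cell filter or at 10 counts and 1 at 10% of the median of cells with a count. It was 5 in 2i ungated (3 with no filter), 5 in N2B27 small (1 at 10 counts or at 10% of the median) and 5 in N2B27 ungated (3 at 10% of the median). With 12 to 22 cells a group, shares of cells carry wide intervals.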

Other observations

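In the 4 cells of N2B27 small that the filter left out, the 7 genes were not uniformly low. *Dppa5a* held 121401 counts over these 4 cells, *Dppa4* 1504, *Tdh* 3149 and *L1td1* 2810, and *L1td1* and *Tdh* each reached 10 counts in 3 of them. In the 12 cells left out of 2i small, *Dppa5a* reached 10 counts in all 12, with 50699 counts in all, and *Tdh* in 9, while *Dppa2*, *Tcl1* and *L1td1* did so in 1 each.

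Another 2i small cell stood apart in the opposite way from the cell of high spike-in share. It had 15712 genes detected and 0.0673% of its counts on spike-ins, and all 7 genes were present in it, with 117 normalized counts of *Dppa2*, 201 of *Dppa3*, 397 of *Dppa4*, 12906 of *Dppa5a*, 494 of *Tcl1*, 1880 of *Tdh* and 209 of *L1td1*.

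*Ooep*, a maternal gene, was the germline gene found in the most cells of 3 groups, with at least 10 counts in 6, 21, 17 and 18 small and ungated cells in 2i and small and ungated cells in N2B27 and means of 1001, 188, 372 and 217 normalized counts. It was chosen after its values were seen.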
